A study of Mus musculus with 75 samples.

Results

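Binding of the cohesin subunit Rad21 in late G1 was compared with its binding in asynchronous cells, using the pooled Rad21 peak list of each. The late G1 list held 18958 peaks and the asynchronous list 13625, together 32583 of the 65630 peaks in the 6 Rad21 lists. A peak was called shared when it overlapped a peak of the other list by at least 1 bp, and otherwise late-G1-only or asynchronous-only. This rule gave 12966 shared and 5992 late-G1-only peaks in late G1, and 12988 shared and 637 asynchronous-only peaks in asynchronous cells. Shared counts differ by direction because 27 late G1 peaks overlapped 2 or more asynchronous peaks and 6 asynchronous peaks overlapped 2 or more late G1 peaks.

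The study followed mouse G1E-ER4 cells, an immature erythroid line that lacks the transcription factor GATA1 and was used uninduced, from mitosis into G1. Nocodazole at 200 ng/ml for 7 to 8.5 h arrested the cells in pro-metaphase, and they were then released and sorted by flow cytometry as pro-metaphase (0 min), ana/telophase (25 min), early G1 (60 min), mid G1 (120 min) and late G1 (240 min). Asynchronous cells, for which the labels give no release time, mix all phases of the cycle. The series holds 75 samples, of which 12 are Rad21 chromatin immunoprecipitations (ChIP-seq), 2 in each of the 5 stages and 2 in asynchronous cells; all come from 1 cell line, arrested cells passed through nocodazole, and the labels do not say whether samples were separate cultures.

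Cohesin is a ring-shaped complex that extrudes chromatin loops, and Rad21 is the subunit that closes the ring. CTCF, a zinc finger protein bound to DNA, halts the ring, so that cohesin accumulates at CTCF sites and at the ends of loops. A loop appears in Hi-C, a genome-wide assay of chromosome contacts, as a focal contact between its anchors. A stripe appears as a line of contacts from 1 anchor across a stretch of chromatin. Cohesin leaves chromosome arms in early mitosis and is loaded again as cells enter G1.

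Each list pools the samples of its group, so no value below has a spread between replicates and no comparison has a replicate test. Intervals in parentheses are exact 95% binomial intervals; they cover counting error only. Peaks are not independent replicates, and no p-value is given across them. Read depth is unknown from the lists, and a list made from fewer reads could hold fewer peaks. Strength is the authors' own fold enrichment of each peak, used only to rank peaks within their list: a percentile of 100 marks the strongest peak, and percentiles of lists with different lengths show no change. Positions are in mouse build mm9, counted from 1.

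Nearly all asynchronous Rad21 peaks lay in the late G1 list, whereas many late G1 peaks had no asynchronous counterpart. Of the asynchronous peaks 95.3% were found in late G1, and of the late G1 peaks 68.4% were found in asynchronous cells. The late G1 list was 1.39 times as long. With the late G1 list limited to its strongest 13625 peaks the shares came to 84.3% and 84.1%, leaving 2143 asynchronous-only and 2166 late-G1-only peaks. Since nearly all matches join single peaks, lists of equal length must leave nearly equal numbers unmatched, so that only the size of these shares carries information.

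Peaks found in a single list were mostly weak in that list. In late G1 the shared peaks had a median percentile of 65.3 (quartiles 44.5 and 82.9), and late-G1-only peaks one of 21.0 (10.9 and 35.4). Their median fold enrichments within that list were 11.6 and 5.59. In asynchronous cells the median percentile was 52.6 for shared peaks (27.6 and 76.2) and 14.4 for asynchronous-only peaks (6.73 and 24.8). The strongest late-G1-only peak stood at percentile 83.1 and the strongest asynchronous-only peak at 64.0, so the top of both lists was shared. The median percentile of late-G1-only peaks was 40.0 with lists of equal length and 32.8 among peaks with a fold of at least 5. That of asynchronous-only peaks was 27.9 under the latter. These percentiles were still those of the full lists, so dropping weak peaks by itself pushes the medians up. Peaks of 1 list were also narrower: late-G1-only peaks had a median width of 216 bp against 320 bp for shared late G1 peaks, and asynchronous-only peaks 181 bp against 258 bp.

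The share found in the other list climbed with strength in both lists, but over different ranges. Among the weakest 10% of late G1 peaks 23.6% were found in asynchronous cells; the share was 54.8% in the fourth 10%, 93.8% in the seventh 10% and 100% in the strongest 10%. Among the weakest 10% of asynchronous peaks 82.7% were already found in late G1, and 97.9% in the fifth 10%. A weak asynchronous peak was thus usually present in late G1, and a weak late G1 peak usually was not present in asynchronous cells. List length bounds this contrast: the late G1 list was 1.39 times as long, so many of its peaks could have no single partner. Shares by strength with lists of equal length were not computed. Many asynchronous-only peaks lay near the calling limit: 27.6% of them had a −log10 q under 5, against 3.71% of shared asynchronous peaks. For late G1 the shares were 9.98% of late-G1-only and 0.694% of shared peaks.

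**Figure D1:**
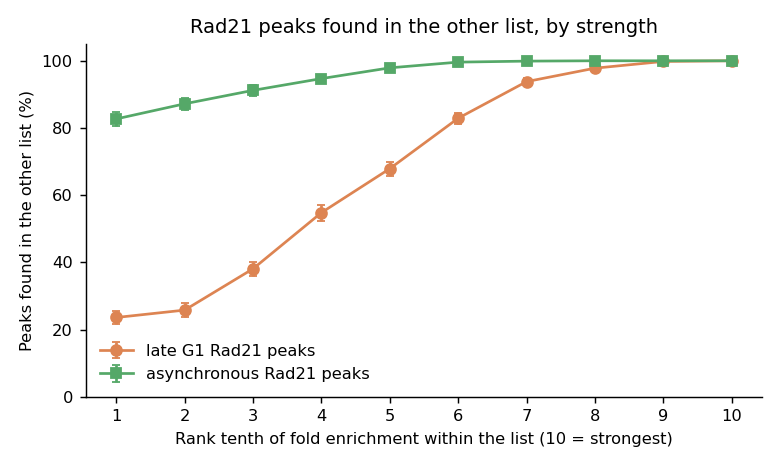
Share of Rad21 peaks found in the other list (vertical axis, percent, with exact 95% binomial intervals) for 10 classes of within-list strength (horizontal axis, weakest to strongest). Late G1 peaks climb from 23.6% to 100%, and asynchronous peaks from 82.7% to 100%. The late G1 list is 1.39 times as long, which limits the share of its peaks that can match.

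Where both lists held a peak, they placed it at nearly the same position. Pairs in which each peak matched a single peak of the other list numbered 12927. Their summits lay a median of 15 bp apart; 70.6% lay within 25 bp and 99.6% within 100 bp. The smallest overlap was 50 bp, and 98.2% of the pairs overlapped by at least 50% of both peaks. Late G1 peaks were the wider ones in 85.2% of pairs, with medians of 320 bp and 258 bp.

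The order of strength within these pairs was similar but not fixed. With both members ranked among the 12927 pairs, Spearman's rho was 0.72 across pairs, which share 2 pooled libraries, the caller and the underlying sequence. In 41.2% of pairs the percentiles differed by under 10 points, and in 16.5% (2133 pairs) by over 30 points. Of the strongest 10% in late G1, 57.9% were also among the strongest 10% in asynchronous cells. Strength thus ordered the shared sites alike at a coarse scale, while individual sites differed widely in rank.

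**Figure D2:**
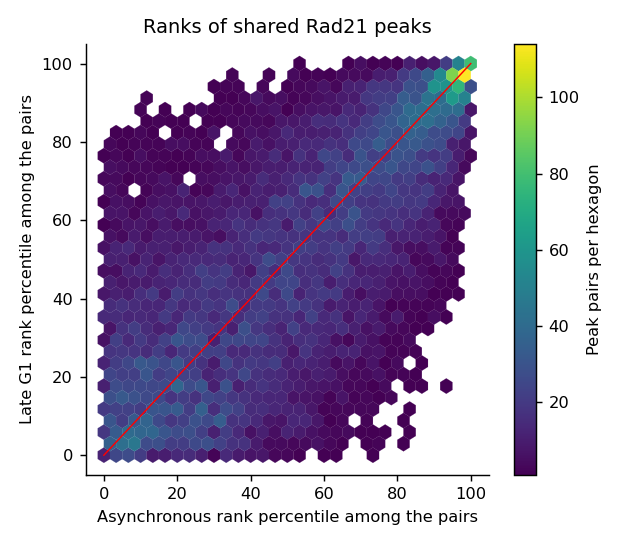
Percentile among the pairs in asynchronous cells (horizontal axis) against that in late G1 (vertical axis) for 12927 pairs of single matching peaks; colour gives pairs per hexagon and the red line equal percentiles. The pairs follow that line, with Spearman's rho of 0.72 and 16.5% of pairs over 30 points apart.

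The largest rank gaps among shared peaks occurred at sites bound by CTCF in every list. The peak on chromosome 9 from 21117727 to 21118157 stood at percentile 92.9 of the pairs in late G1 and 11.6 in asynchronous cells. The peak on chromosome 2 from 164233181 to 164233537 stood at 80.0 and 0.425, and that on chromosome 5 from 144061301 to 144061741 at 81.1 and 1.63. The CTCF peaks at these 3 sites stood at percentiles 91.7 to 97.6 of the late G1 CTCF list and 46.6 to 51.6 of the asynchronous CTCF list, so they too ranked higher in late G1. In the other direction, the peak on chromosome 14 from 121844480 to 121844754 stood at 3.51 in late G1 and 80.0 in asynchronous cells. The peak on chromosome 15 from 51730614 to 51731053 stood at 18.2 and 94.6, and that on chromosome 9 from 88441065 to 88441374 at 5.62 and 81.8. Their CTCF peaks ranked at 53.5 to 65.6 in late G1 and 80.9 to 88.2 in asynchronous cells. At all 6 sites, picked for their extreme gaps, the order of the CTCF percentiles followed that of Rad21. How often it did so over all pairs was not tested. Over all shared late G1 peaks, CTCF was in both the late G1 and asynchronous lists at 97.2%, and in the pro-metaphase list at 49.2%. All 6 lay on late G1 loop anchors, as did 71.8% of all shared peaks.

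The strongest shared peaks, chosen by their summed percentile, were all on late G1 loop anchors, and 4 of the 5 on stripe anchors. In the strongest 10% of the late G1 list 88.1% of shared peaks lay on loop anchors and 33.0% on stripe anchors. On chromosome 11 a pair of them spanned 11873228 to 11873833 and 79027327 to 79027879. Another lay on chromosome 2 between 131645767 and 131646323, and another on chromosome 19 between 44657047 and 44657618. These 4 had late G1 fold enrichments of 44.4 to 47.6 and CTCF percentiles of 98.2 to 99.9 in late G1. In asynchronous cells their CTCF percentiles were 89.7 to 99.8. All 4 were called in ana/telophase, at Rad21 percentiles of 62.8 to 99.9, and in early and mid G1. Of all shared peaks in the strongest 10% of the late G1 list, 93.5% were in the ana/telophase list and 100% in the mid G1 list. The remaining one of the 5, on chromosome 8 from 108204559 to 108206475, had no CTCF peak in late G1 or in asynchronous cells.

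Late-G1-only peaks were mostly CTCF sites, though less uniformly than shared peaks. CTCF peaks of late G1 overlapped 95.0% of all late G1 Rad21 peaks. The share was 99.0% (98.8 to 99.1) for shared peaks and 86.5% (85.6 to 87.4; 5185 peaks) for late-G1-only peaks. Shared peaks of the same strength, weighted to the rank classes of the late-G1-only peaks, reached 95.8%. The difference thus remained at matched strength, where the weighted share lay above the late-G1-only interval and has no interval of its own.

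Most of these sites carried CTCF in asynchronous cells as well, without a Rad21 peak there. A CTCF peak lay in both the late G1 and the asynchronous list at 76.8% of late-G1-only peaks (4601), in the late G1 list alone at 9.75% (584) and in neither at 12.7%. At shared late G1 peaks CTCF was in both lists for 97.2%. The CTCF peaks themselves ranked lower at late-G1-only sites. The median percentile there in the late G1 CTCF list was 53.2 (quartiles 31.5 and 74.4), against 73.7 (55.4 and 87.7) at shared sites. A late-G1-only Rad21 peak was therefore usually at a CTCF site called in both populations, with CTCF strengths spread widely over the list.

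The CTCF lists of earlier stages gave the same order of classes. Across pro-metaphase, ana/telophase, early G1, mid G1 and asynchronous cells, a CTCF peak overlapped 25.7%, 67.3%, 78.2%, 86.0% and 77.5% of late-G1-only sites. For shared sites the shares in that order were 49.2%, 88.7%, 96.3%, 98.7% and 97.4%. In both classes the share was lowest in pro-metaphase and close to its G1 level by mid G1. In none of the 6 CTCF lists were 10.4% of late-G1-only sites (623) and 0.632% of shared sites.

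Asynchronous-only peaks overlapped CTCF peaks of the same cells least often. Asynchronous CTCF peaks overlapped 96.3% of all asynchronous Rad21 peaks, 97.4% of shared ones and 74.9% (71.3 to 78.2; 477 peaks) of the asynchronous-only ones. Shared asynchronous peaks in the same rank classes reached 93.9%. The order of the single-list classes depended on the CTCF list. Asynchronous CTCF peaks overlapped 77.5% (76.5 to 78.6) of late-G1-only peaks, an interval that overlapped the asynchronous-only one. Of the 637 asynchronous-only sites, 73.2% had CTCF in both lists, 1.73% (11) in the asynchronous list alone and 4.55% (29) in the late G1 list alone. Over all asynchronous peaks these shares were 96.0%, 0.279% and 1.89%. Sites where CTCF itself was called in asynchronous cells but not in late G1 were thus few among them, though more frequent than over all asynchronous peaks. In none of the 6 CTCF lists were 17.6% of asynchronous-only sites, against 1.47% of all asynchronous peaks.

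Seen from CTCF, 30509 late G1 CTCF peaks overlapped a CTCF peak of asynchronous cells, and at these sites the Rad21 calls could be read with CTCF present in both. Rad21 was called in both populations at 41.3% of them (12599), in late G1 alone at 15.0% (4584), in asynchronous cells alone at 1.52% (465) and in neither at 42.2% (12861). By CTCF strength, sites with Rad21 in both went from 4.33% in the weakest 10% to 78.9% in the strongest. Sites with Rad21 in late G1 alone went from 5.98% to a highest value of 19.0% in the seventh 10%, then to 12.9% in the strongest. From the fifth to the seventh 10% they stood at 18.1% to 19.0% of sites, with overlapping intervals. In the weakest 10% they outnumbered sites with Rad21 in both, and in the strongest 10% they were far fewer. Asynchronous-alone sites stayed between 0.445% and 2.17% in every class.

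**Figure D3:**
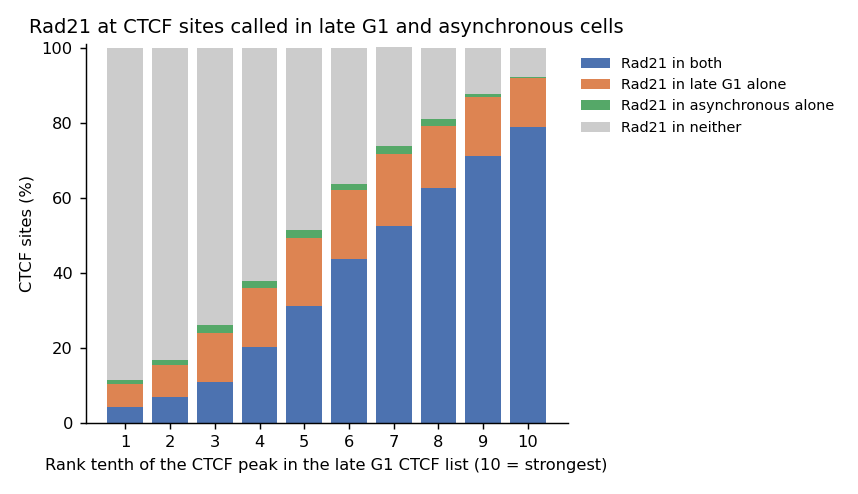
CTCF sites called in both late G1 and asynchronous cells, as stacked bars by Rad21 call (vertical axis, percent of sites) over 10 classes of late G1 CTCF strength (horizontal axis, weakest to strongest). Rad21 in both populations reaches 78.9% and Rad21 in late G1 alone is highest at 19.0%.

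The 8 strongest late-G1-only peaks all lay on CTCF sites of both populations, as did 76.8% of all late-G1-only and 90.7% of all late G1 peaks. In strength class 8, counted from the weakest, late G1 CTCF overlapped 100% (41 of 41, interval 91.4 to 100) of late-G1-only peaks. Late G1 CTCF at all 8 was thus usual for late-G1-only peaks of about this strength. The strongest of the 8, on chromosome 7 from 38142665 to 38143006, had a late G1 fold enrichment of 17.0. Early, mid and late G1 gave this peak Rad21 percentiles of 5.26, 47.1 and 83.1. The peak on chromosome 5 from 120552806 to 120553119 stood at Rad21 percentiles of 24.9, 39.3, 48.0 and 80.5 in ana/telophase, early, mid and late G1. Its CTCF percentile was 95.1 in mid G1 and at least 99.7 in each of the other 5 CTCF lists. This was thus among the strongest CTCF sites throughout, with Rad21 peaks from ana/telophase to late G1 and none in asynchronous cells.

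The peak on chromosome 7 from 7248284 to 7248612 was called from early G1, at Rad21 percentiles of 60.1, 81.2 and 80.5 in early, mid and late G1. Its nearest asynchronous Rad21 peak lay 106975 bp away. All 8 peaks were called in mid G1, at Rad21 percentiles of 39.7 to 81.2, as were 97.6% (87.1 to 99.9; 40 of 41) of all late-G1-only peaks in the eighth 10%. On loop anchors lay 5 of the 8 and on stripe anchors 0, where all late G1 peaks stand at 66.1% and 12.6%. Their late G1 percentiles were 77.5 to 83.1, in the eighth and ninth 10%, where 97.8% and 99.8% of late G1 peaks were shared.

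The 8 strongest asynchronous-only peaks were weaker in their list and more mixed in CTCF, with percentiles of 49.9 to 64.0 and fold enrichments of 7.62 to 9.25. The strongest, on chromosome 7 from 132926798 to 132927140, lay on CTCF peaks at percentile 76.5 in asynchronous cells and 62.4 in late G1, and in no other Rad21 list. The next, on chromosome 8 from 84871437 to 84871646, overlapped none of the 6 CTCF lists and lay 592 bp from a late G1 Rad21 peak, on a stripe anchor. A CTCF peak of asynchronous cells lay at 5 of the 8 and a mid G1 Rad21 peak at 2 of the 8. Mid G1 held 89.3% of all asynchronous peaks, 23.5% of asynchronous-only ones and 43.3% (25.5 to 62.6) of the asynchronous-only peaks in the fifth 10%, where the value for late-G1-only peaks was 69.6%.

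Peaks of 1 list were seldom shifted versions of a peak in the other. Only 4 late-G1-only and 7 asynchronous-only peaks lay within 100 bp of a peak of the other list. Within 1 kb were 235 (3.92%) and 40 (6.28%). The median distances were 31.9 kb and 25.7 kb, and 20.0% and 15.9% lay over 100 kb away.

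Sites without CTCF made up a larger part of the peaks of 1 list than of all peaks. Of the late-G1-only peaks 13.5% (12.6 to 14.4; 807) had no late G1 CTCF peak, against 4.96% of all late G1 peaks. Of the asynchronous-only peaks 25.1% (21.8 to 28.7; 160) had no asynchronous CTCF peak, against 3.68% of all asynchronous peaks. Mid G1 Rad21 was called at 25.4% (22.4 to 28.6; 205) of the 807. The strongest of the former lay on chromosome 2 from 140494070 to 140494329, at Rad21 percentile 41.9 in mid G1 and 62.5 in late G1, with CTCF in none of the 6 lists. Another, on chromosome 2 from 57551265 to 57551511 at percentile 53.2, was in no other Rad21 list and 220301 bp from the nearest asynchronous peak. Of the 5 strongest such late-G1-only peaks, 4 were in the mid G1 list, 2 of those 4 with a weak mid G1 CTCF peak at percentiles 1.02 and 4.33, and 1 of the 5 lay on a loop anchor.

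Shared sites had mostly acquired Rad21 before late G1, and late-G1-only sites less often. A Rad21 peak of any earlier stage overlapped 79.3% of all late G1 peaks, 93.8% (93.3 to 94.2) of shared peaks and 48.1% (46.9 to 49.4; 2885) of late-G1-only peaks. Shared peaks in the same rank classes and CTCF states reached 75.1%. The difference of the classes was thus smaller at matched strength and CTCF. The matched share lay above the late-G1-only interval and has no interval of its own. Shared peaks are by definition called in a second Rad21 list. How far that choice alone sets their presence in further Rad21 lists was not tested.

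Stage by stage, the lists of pro-metaphase, ana/telophase, early G1 and mid G1 held 3.62%, 49.8%, 62.7% and 92.5% of shared peaks. Late-G1-only peaks were at 0% (0 of 5992, which allows a share of up to 0.0501%), 7.21%, 7.09% and 45.2%. Over all late G1 peaks the 4 shares were 2.47%, 36.3%, 45.1% and 77.6%. Of the late-G1-only sites 12.1% (11.3 to 13.0; 725) were first called before mid G1, 36.0% (2160) in mid G1 and 51.9% (3107) in no earlier list. Among shared sites 69.2% were first called before mid G1, 46.4% of all shared sites in ana/telophase, 24.6% in mid G1 and 6.25% (810) in no earlier list.

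**Figure D4:**
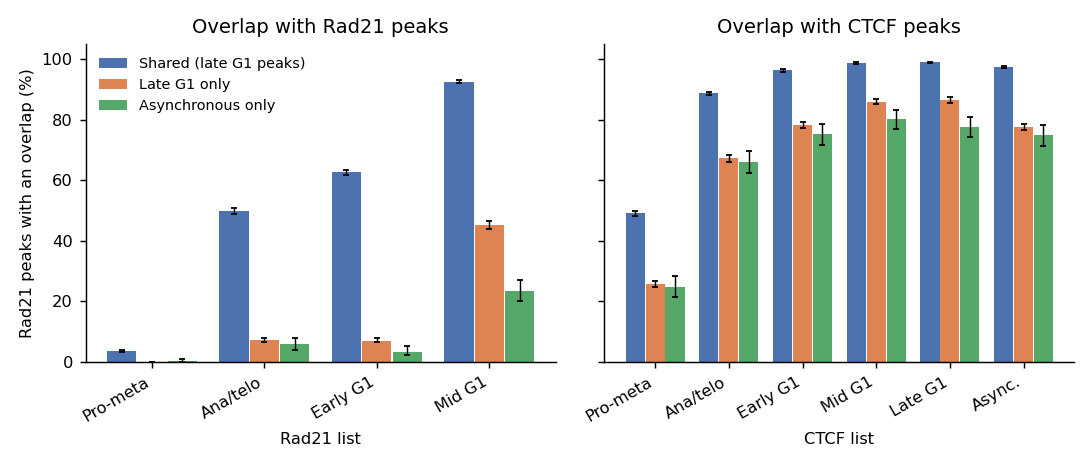
Share of shared, late-G1-only and asynchronous-only Rad21 peaks overlapped by a peak of each Rad21 list (left panel) and each CTCF list (right panel), as bars in percent with exact 95% binomial intervals (vertical axis) by stage (horizontal axis). Mid G1 Rad21 holds 92.5%, 45.2% and 23.5% of the 3 classes.

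At 1 bp overlap, asynchronous-only sites were the class least often seen before. A peak of an earlier stage overlapped 90.7% of all asynchronous peaks and 28.4% (24.9 to 32.1; 181) of asynchronous-only peaks, against 81.5% for shared asynchronous peaks of the same rank class and CTCF state. The lists of pro-metaphase, ana/telophase, early G1 and mid G1 held 3.46%, 47.7%, 59.8% and 89.3% of all asynchronous peaks. For asynchronous-only sites the shares were 0.314%, 5.81%, 3.45% and 23.5%. None of the 5 sorted stages had a peak at 71.6% of them (456). Their share with an earlier peak depended on the settings and came to 47.8% (44.5 to 51.1) with an overlap of 50% of both peaks, where late-G1-only sites stood at 50.0% (48.7 to 51.2) and the intervals overlapped. It came to 54.8% with a fold of at least 5 and 57.9% with lists of equal length, beside 63.2% and 70.5% for late-G1-only sites. The median percentile of the mid G1 peaks at these sites was 17.5, below the 23.2 at late-G1-only sites and the 61.5 at shared sites.

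Among sites called in ana/telophase or early G1, mid G1 seldom lacked the peak at shared sites and lacked it more often at sites of 1 list. The shares without a mid G1 peak were 1.74% (1.48 to 2.03; 156 of 8962) for shared, 24.4% (21.3 to 27.7; 177 of 725) for late-G1-only and 57.7% (43.2 to 71.3; 30 of 52) for asynchronous-only sites. Over whole classes such sites made up 1.20%, 2.95% and 4.71%. Called in all of ana/telophase, early and mid G1 were 43.2% (5595) of shared and 1.95% (117) of late-G1-only sites. The strongest 5 of these 117 stood at late G1 percentiles of 76.5 to 80.5. One of them, on chromosome 7 from 25675511 to 25675922, had Rad21 percentiles of 39.5, 53.8, 38.9 and 77.1 from ana/telophase to late G1 and was not called in asynchronous cells. CTCF was present at all 5 in both populations, as at 76.8% of all late-G1-only sites. On loop anchors lay 3 of the 5, beside 53.7% of all late-G1-only sites.

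CTCF and early presence went together among peaks of 1 list. Of late-G1-only peaks with a late G1 CTCF peak 51.6% were in an earlier Rad21 list, against 26.1% of those without. For asynchronous-only peaks the shares were 33.5% and 13.1%. Depth of the earlier lists, unknown here, sets how many weak peaks each could hold; its part in these shares was not tested.

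Late-G1-only peaks lay on late G1 loop anchors less often than shared peaks, and the gap widened with strength. Of the 11340 late G1 loops, anchors overlapped 66.1% of all late G1 Rad21 peaks, 71.8% (71.1 to 72.6) of shared and 53.7% (52.4 to 54.9; 3216) of late-G1-only peaks. Late G1 CTCF peaks without Rad21 were on anchors in 40.4% of cases, below both. At matched rank class and CTCF state, shared peaks reached 57.4%.

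Anchor use of shared peaks climbed from 57.2% in the weakest 10% to 88.1% in the strongest. Late-G1-only peaks had no such slope: 55.4% in the weakest 10%, 50.0% in the fifth and 57.1% in the seventh. In the weakest 20% of the list the intervals of the classes overlapped, and from the third to the eighth 10% they did not. The anchor use of late-G1-only peaks thus did not climb with strength over these classes.

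**Figure D5:**
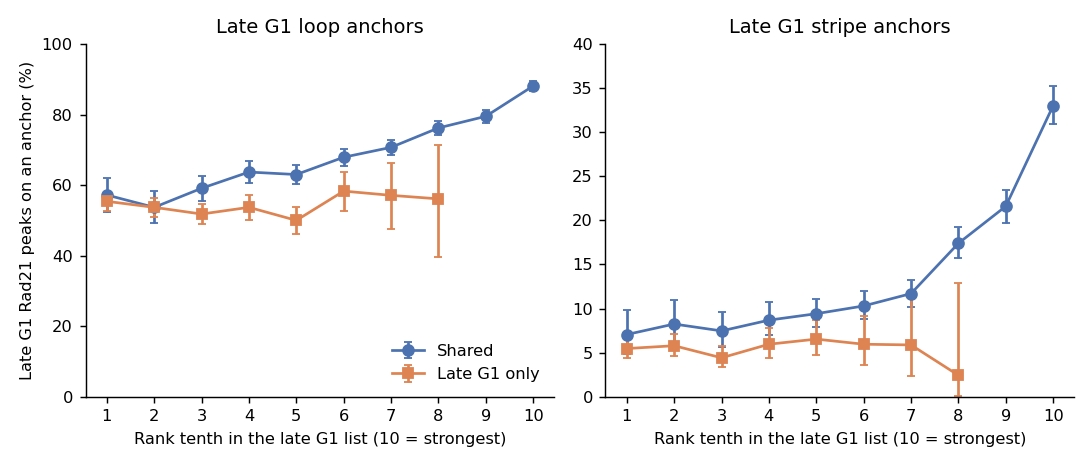
Share of late G1 Rad21 peaks on late G1 loop and stripe anchors (vertical axes, percent, with exact 95% binomial intervals) by 10 classes of strength (horizontal axis), for classes with at least 20 peaks. Shared peaks climb to 88.1% on loops and 33.0% on stripes, and late-G1-only peaks stay between 50.0% and 58.3% on loops.

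Within the late-G1-only class, anchor use hardly varied with the other features. It was 54.2% with and 50.2% without a late G1 CTCF peak, and 53.4% for peaks in an earlier Rad21 list and 53.9% for those in none. Shared peaks in and not in an earlier list stood at 72.9% and 56.2%. Weighted to the rank classes of the shared peaks in no earlier list, those in an earlier list stood at 61.0%, against 56.2% (52.7 to 59.6), so most of that gap went with strength. Asynchronous-only positions were on late G1 loop anchors in 42.1% of cases (38.2 to 46.0; 268), close to the 40.4% at CTCF peaks without Rad21. Over all asynchronous peaks the share was 70.5%, and shared asynchronous peaks of the same rank class and CTCF state stood at 60.1%.

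Anchors are wide compared with peaks, so neighbouring peaks can lie on the same anchor. Of the 3216 late-G1-only peaks on anchors, 53.9% (1732) sat on at least 1 anchor without a shared peak. Among the 20272 distinct loop anchors, 57.0% (11558) held a shared peak, 9.51% (1927) held a late-G1-only but no shared peak, and 33.5% (6787) held no Rad21 peak of late G1. A CTCF peak lay at 99.6%, 88.5% and 28.1% of them. Late-G1-only Rad21 was thus the sole Rad21 at a minority of anchors, and most of those carried CTCF.

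Loops were then split by the Rad21 class at each anchor, counting a late-G1-only peak only where the anchor held no shared one. Shared peaks lay at both anchors of 4621 loops (40.7%), which had a median size of 180 kb and a median observed/expected contact ratio of 4.19. A shared and a late-G1-only anchor joined in 1259 loops (11.1%), with 160 kb and 3.35. Late-G1-only peaks at both anchors occurred in 97 loops (0.855%), with 130 kb and 2.84. Loops with a shared anchor opposite an anchor without Rad21 numbered 2984, with a ratio of 2.98, and loops with no Rad21 at either anchor 1759, with 2.77. Contact enrichment was highest with shared peaks at both ends, and with late-G1-only peaks at both ends it was near that of loops without Rad21.

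Fewer of the 97 loops between late-G1-only anchors were called by early and mid G1 than of loops between shared anchors. A matching loop, with both anchors within 20 kb, was present by early G1 for 64.8% of all late G1 loops. The share was 67.6% (66.3 to 69.0) with shared peaks at both anchors and 63.1% (60.4 to 65.8) with a shared and a late-G1-only anchor. With late-G1-only peaks at both anchors it was 53.6% (43.2 to 63.8), an interval that overlapped the one before. It also overlapped that of loops with no Rad21 at either anchor, at 62.9% (60.6 to 65.2). By mid G1 the shares of the classes with Rad21 at both anchors were 89.3%, 85.5% and 74.2% (64.3 to 82.6). Loops with no Rad21 stood at 81.9% (80.0 to 83.7) by then. In the same order, the early G1 shares among loops under 200 kb were 78.8%, 69.8% (66.5 to 73.0) and 60.0% (47.6 to 71.5; 70 loops). There too the last interval overlapped the one before. Among larger loops the shares were 55.1%, 52.1% and 37.0% (19.4 to 57.6), the last over 27 loops, so that this order was within counting error. Loops between a late-G1-only anchor and one without Rad21 (620) did not follow this order, with 68.1% present by early G1.

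Stripe anchors were mainly shared Rad21 sites. Of the 1745 late G1 stripes, anchors overlapped 12.6% of all late G1 Rad21 peaks, 15.9% of shared and 5.52% (4.96 to 6.13; 331) of late-G1-only peaks. Shared peaks of the same rank class stood at 8.24%, and CTCF peaks without Rad21 at 4.28%. With anchors widened by 10 kb, 8.85% of late-G1-only peaks lay on one. Over all asynchronous peaks 15.5% lay on stripe anchors, and of asynchronous-only ones 6.59% (42). Seen from the stripes, 81.5% of anchors (1423) held a shared peak, 3.04% (53) a late-G1-only peak alone and 15.4% (269) none. Median stripe length was 330 kb with a shared anchor, 240 kb with a late-G1-only anchor and 260 kb without Rad21; the median strengths, as deposited observed/expected ratios, were 2.83, 2.75 and 2.74.

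Few late-G1-only peaks sat at hubs of many loops. Peaks that touched the anchors of 3 or more loops made up 18.2% of shared, 8.11% of late-G1-only and 7.06% of asynchronous-only peaks. The highest numbers were 9 loops at a shared, 7 at a late-G1-only and 9 at an asynchronous-only peak. Of the 3 late-G1-only peaks with 7 loops, the first spanned 82373067 to 82373307 of chromosome 10. The second spanned 59670726 to 59670958 of chromosome 1, and the last 30069705 to 30070131 of chromosome 16. They stood at late G1 percentiles of 31.7, 11.8 and 5.79, and each was also on a stripe anchor. The first lay 673 bp and the last 615 bp from an asynchronous Rad21 peak, and the last overlapped no CTCF peak in any list. The late-G1-only peaks with 7 loops thus lay below the late G1 median percentile of 49.8, but on both sides of the late-G1-only median of 21.0. The strongest with 6 loops stood at 46.0 and 40.0. The 7-loop peaks on chromosomes 10 and 16 had a neighbour of the asynchronous list within 1 kb.

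Domains are stretches of chromatin with more contacts inside than across their ends, and cohesin peaks often mark those ends. A late G1 domain boundary lay within 20 kb of 33.7% of all late G1 Rad21 peaks, of 36.6% of shared and of 27.5% (26.4 to 28.7) of late-G1-only peaks. Over all asynchronous peaks the share was 36.3%, and for asynchronous-only positions it was 32.2% (28.6 to 36.0). Boundaries thus lay near late-G1-only peaks less often than near shared ones. The asynchronous-only interval overlapped those of late-G1-only and of shared peaks (35.8 to 37.5). Boundary shares at matched strength were not computed.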

How the data were processed

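The authors processed the ChIP-seq and Hi-C reads. MACS2 2.1.0, bedtools 2.27.1, SAMtools 1.7 and Bowtie 0.12.7 (ChIP-seq) and HiC-Pro and Bowtie2 (Hi-C) are named with build mm9, per the submitters' processing notes. Peak lists pool merged, downsampled replicates, per the peak names. Each peak has a deposited fold enrichment (a ratio), a deposited −log10 p and −log10 q, and a deposited summit offset. The sources used here do not give the background behind the fold. Rad21 names hold the term p1e4, and the smallest deposited −log10 p was 4.05 in late G1 and 4.13 in asynchronous cells. Deposited loop lists give observed and expected contact signal and a p-value, per the file headers; deposited stripe lists give a ratio as strength. The sources used here name no loop, domain or stripe caller, and asynchronous Hi-C was not analysed here.

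Overlaps (1 bp), ranks and shares with exact Clopper-Pearson 95% intervals came from scripts in Python 3.11.15 with SciPy 1.17.1, pandas 2.3.3 and NumPy 2.4.6, and plots from Matplotlib 3.10.9. Overlap and interval functions passed 6 of 6 tests on simulated data, with overlaps checked against bedtools 2.31.1. Strength classes each hold about 10% of a list, because tied peaks stay in 1 class. Matched values average shared peaks by class, weighted by the peaks found in a single list. The limit beside a count of 0 is 3 counts of the total. Groups came from sample titles; the peak classes and lists were chosen with earlier results of these data known. Regions were named by rule: the strongest of each class, those without CTCF, with most loops, in 3 earlier stages, or with the largest rank gaps. Alternatives covered overlap, summits, −log10 q, fold, list length, ranking, CTCF lists, anchor width, earlier lists and loop p-value. A genome of build mm9 was not used here, so no sequence or gene is given.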

Additional observations from a re-analysis of the deposited data

How the results depend on the processing

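Of 61 values under alternative settings for 10 results, 20 stayed within the 95% interval of the value reported and 41 did not. Limiting stripes to at least 100 kb removed none of the 1745 and tested nothing. Median percentile here means strength within the full list, without a new ranking after peaks were dropped. All values are percentages or percentiles. With an overlap of 50% of both peaks, 93.3% of asynchronous and 67.0% of late G1 peaks were found in the other list. Asynchronous-only peaks then had a median percentile of 16.1, CTCF at 80.5% and an earlier peak at 47.8%, and late-G1-only peaks an earlier peak at 50.0%. With summits within 100 bp, 94.7% of asynchronous peaks were found and 33.9% of asynchronous-only ones had an earlier peak. With a −log10 q of at least 5, 95.9% of asynchronous peaks were found; for late-G1-only and asynchronous-only peaks the percentiles were 24.4 and 20.2, CTCF 89.1% and 82.4%, and earlier presence 52.8% and 34.8%. With a fold of at least 5, 94.7% and 66.0% were found, percentiles were 32.8 and 27.9, CTCF 93.0% and 88.6%, earlier presence 63.2% and 54.8%, and loop anchors held 55.6% of late-G1-only peaks.

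With lists of equal length, 84.3% and 84.1% were found, percentiles were 40.0 and 18.8, CTCF 95.2% and 87.4%, and earlier presence 70.5% and 57.9%. Ranking by −log10 p gave percentiles of 19.7 and 10.9. Late-G1-only peaks overlapped asynchronous CTCF at 77.5%; CTCF peaks with a fold of at least 10 overlapped 74.6% and 68.3%. Anchors widened by 10 kb held 62.9% of late-G1-only peaks on loops and 8.85% on stripes, and earlier lists with a −log10 q of at least 5 held 44.6% and 24.8%. Of the 41, 7 moved by over 1.5 times: percentiles of late-G1-only and asynchronous-only peaks and earlier presence of the latter, under settings that drop or rematch weak peaks, and widened stripe anchors. Dropping weak peaks by itself raises percentiles of the full list, so their rise does not show stronger peaks.

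No paired analysis was possible because each list pools its replicates, and for the same reason no fit without a replicate exists. Unknown depth limits what a missing peak shows: a site in 1 list was not called in the other, which does not show that Rad21 was not bound there.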

Other observations

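Chromosome X differed from the autosomes in how its late G1 Rad21 peaks were shared. Of its 473 late G1 peaks, 56.2% (51.6 to 60.8; 266) were found in asynchronous cells, against 68.7% on the autosomes, where single chromosomes ranged from 66.3% to 71.6%. Autosomal peaks in the rank classes of the X peaks stood at 66.9%. In the reverse direction the shares were alike, with 95.7% of asynchronous peaks on X and 95.3% on autosomes found in late G1. CTCF was alike as well: it overlapped 96.4% of X and 95.0% of autosomal late G1 Rad21 peaks, and 90.2% and 91.1% of late G1 CTCF peaks were found in asynchronous CTCF. Late G1 Rad21 peaks on X were less often in earlier lists, with 18.2% against 36.8% in ana/telophase and 30.2% against 45.5% in early G1, while mid G1 stood at 74.4% and 77.7%. Loop anchors overlapped 38.5% of X and 66.8% of autosomal peaks. Unlike the share found in asynchronous cells, these stage and anchor shares were not matched for strength. Of the 473 X peaks, 13 were in the strongest 10% of the late G1 list. Among shared late G1 peaks, ana/telophase presence climbed from 14.4% in the weakest 10% to 93.5% in the strongest. Their anchor use climbed from 57.2% to 88.1%. How far strength accounts for the stage and anchor gaps of X was not tested.

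The strongest asynchronous Rad21 peak, on chromosome 8 from 108204563 to 108206474, was singled out after its values were seen. It was 1912 bp wide with a fold enrichment of 63.7, and also stood at percentile 100 in the pro-metaphase and mid G1 lists. Its only CTCF peak was in ana/telophase, at percentile 2.70.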
